A study of Homo sapiens with 9 samples.

Results

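The genes described here are DIRAS3, MRAS, RRAS, RRAS2, HRAS, NRAS, RAP1A, RIT1 and RHEB, 9 RAS-like GTPase genes among the 31004 genes of the deposited table. All 9 were found by mapping their symbols to Ensembl identifiers, and all 9 passed the filter on low values that left 11875 genes for testing. DIRAS3 and MRAS were chosen by their measured FPKM in these very libraries, for their opposite differences between hairpin and control groups, so their values are given as a description and without a test. The other 7 were named for their kinship and were tested with all other genes.

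RAS-like GTPases are small switch proteins that signal while they hold GTP and fall silent once it is cut to GDP. Exchange factors load the GTP, GTPase-activating proteins speed its cleavage, and lipid tails anchor most members at membranes, where HRAS and NRAS start the RAF, MEK and ERK kinase cascade. DIRAS3 stands apart in the family as an imprinted gene, active from the paternal copy, whose product restrains growth and takes part in autophagy, and its loss is a known feature of breast and ovarian cancers. MRAS, in contrast, joins the scaffold SHOC2 and the phosphatase PP1 in a complex that removes an inhibitory phosphate from RAF kinases.

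The cells were MDA-MB-468, a line of basal-like, triple-negative breast cancer. They carried lentivirus, delivered at a multiplicity of infection of 10, with 1 of 2 short hairpins aimed at FAM83H-AS1, a long noncoding RNA (shFAM83H-AS1_1 and shFAM83H-AS1_2), or with the control hairpin shNC, whose cells the labels list as wild type. All cells, the controls included, were kept under 1 µg/mL puromycin as stable lines, and each of the 3 groups had 3 RNA-seq libraries from 2 µg of total RNA. The labels do not say whether a line was a pool or a clone, and they give no separate cultures for the replicates, so each p-value measures only the spread between these libraries, which may be technical.

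The values are FPKM, reads corrected for gene length and library depth, so levels can be set side by side between genes. The depth used for scaling was 15270673 to 18115070 reads per library. The library of shFAM83H-AS1_1 replicate 3 stood apart. It lay at 61.2 on the first principal component, against -24.3 to 5.7 for the other 8 libraries, and correlated at 0.941 and 0.950 with its own replicates. For DIRAS3, MRAS, RRAS, NRAS and HRAS, and the genes nearest to the first 2 in profile, values without it are given too. They are also given for the list genes RASD2, RALB, RGL2, ULK1, PHLDA2, SHOC2 and PEG10. The same holds for the markers KRT8, KRT18, KRT5, EPCAM and KRT14. The gene model taken as the target was lower with each hairpin. It is listed under the symbol IQANK1, so its reads may not all come from FAM83H-AS1. Its mean was 5.95 ± 1.27 FPKM with shFAM83H-AS1_1 and 7.98 ± 0.551 FPKM with shFAM83H-AS1_2, against 16.5 ± 1.98 FPKM with shNC (SD, n = 3 each). The first hairpin passed the test (log2 change -1.35, limma adjusted p = 0.00637) and the second did not (-0.96, limma adjusted p = 0.142). The markers listed for basal-like breast epithelium summed to 747 to 1230 FPKM with shFAM83H-AS1_1 and 730 to 741 FPKM with shFAM83H-AS1_2, against 540 to 608 FPKM with shNC. The list holds KRT8, KRT18 and EPCAM, which are not limited to basal cells, so the sum does not measure basal character. Of the listed markers, the keratin KRT8 averaged 481 and 298 FPKM with the first and second hairpin, against 219 FPKM with shNC. KRT18 averaged 150 and 91.1 FPKM, against 75.3 FPKM, and KRT5 128 and 98.2 FPKM, against 40.0 FPKM. Without shFAM83H-AS1_1 replicate 3 the first mean was 360 FPKM for KRT8, 114 FPKM for KRT18 and 124 FPKM for KRT5. EPCAM averaged 144 and 165 FPKM, against 171 FPKM, and KRT14 26.9 and 57.0 FPKM, against 37.5 FPKM, so these did not follow the sum. Without shFAM83H-AS1_1 replicate 3 the first mean was 165 FPKM for EPCAM and 28.6 FPKM for KRT14. KRT17 averaged 18.8 and 19.1 FPKM, against 17.5 FPKM, and EGFR 7.31 and 8.31 FPKM, against 7.56 FPKM. Of these 8 markers, 7 reached 1 FPKM and KRT6A did not, while of the luminal receptors ESR1 stayed under 1 FPKM and ERBB2 lay at 4.51 to 9.23 FPKM. Of the fibroblast markers only COL1A1 reached 1 FPKM, and none of the 5 leukocyte or 3 endothelial markers did. The part of these marker levels in the results below was not tested.

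The stretches just upstream of DIRAS3 and MRAS are shown first, since these genes differed in opposite directions and the letters allow their starts to be set side by side. Both are the 250 bases before the RefSeq start site in GRCh38.p14, read along the gene's own strand, with the letters TATAA, the core of the TATA box, in capitals. DIRAS3 comes from the minus strand of chr1:68050628-68050877, and MRAS, at the first of its listed start sites, from the plus strand of chr3:138348329-138348578.
DIRAS3: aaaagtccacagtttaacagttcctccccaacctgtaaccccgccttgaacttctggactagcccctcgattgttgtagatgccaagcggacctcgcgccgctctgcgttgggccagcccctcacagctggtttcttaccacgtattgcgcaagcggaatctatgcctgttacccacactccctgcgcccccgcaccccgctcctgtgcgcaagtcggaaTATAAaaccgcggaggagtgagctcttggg
MRAS: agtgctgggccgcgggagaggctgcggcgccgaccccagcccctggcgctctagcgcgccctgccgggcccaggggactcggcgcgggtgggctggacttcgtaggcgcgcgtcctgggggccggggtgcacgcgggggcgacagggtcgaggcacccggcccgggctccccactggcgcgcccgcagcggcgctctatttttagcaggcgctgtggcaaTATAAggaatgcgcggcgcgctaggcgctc

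In both genes TATAA began 30 bases before the start site, at position -30 counted from the first transcribed base, on the gene's own strand. The search covered 250 bases before and 50 after each start site and both strands, and 8 of the 9 genes had an entry, with 14 start sites in all. RRAS was not matched. Both start sites shown lie inside the gene spans of the deposited table, which begin further upstream. TATAA was held by 2 of the 14 start sites (14.3%), the ones of DIRAS3 and MRAS shown, where 20.4% of 35116 RefSeq promoters of that length hold it anywhere on either strand. On the gene's strand, 3.42% of all promoters have TATAA starting between -33 and -26. The motif GGGCGG, the core of the GC box, was present at 10 of the 14 start sites (71.4%), in 6 of the 8 genes, where 45.0% of all promoters hold it. At the MRAS start site shown it occurs once, at position 42, the other 2 start sites of MRAS hold 7 more, and the DIRAS3 window held none. CCAAT was found at 2 of the 14 (14.3%), in HRAS and RHEB, where 34.6% of all promoters hold it, and CACGTG at 1 of the 14 (7.14%), in NRAS, where 7.26% do. The windows of the start sites shown differ in base composition too. The MRAS window was 76.3% G and C with 44 CpG pairs, and the DIRAS3 window 58.3% with 21, where the median of all promoters is 14 CpG pairs. The other 2 MRAS windows were 80.3% G and C with 47 pairs and 60.7% with 17, the last of these close to DIRAS3. The motifs were chosen after the sequences had been read, and a match describes letters only.

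DIRAS3 (ENSG00000162595, chr1:68045886-68051631 on the minus strand of hg38) was low in control cells and higher with each hairpin. With shFAM83H-AS1_1 it had 8.49, 10.0 and 13.7 FPKM in replicates 1, 2 and 3. With shFAM83H-AS1_2 it had 3.99, 3.81 and 4.38 FPKM, and with shNC 1.64, 3.42 and 2.97 FPKM. All 3 libraries of the first hairpin lay above the rest, all 3 of the second lay above every control, and no group overlapped another. The means were 10.7 ± 2.66 FPKM with shFAM83H-AS1_1 and 4.06 ± 0.288 FPKM with shFAM83H-AS1_2, against 2.68 ± 0.925 FPKM with shNC (SD, n = 3 each). The level with shFAM83H-AS1_1 was thus 4.01 times that with shNC, and the level with shFAM83H-AS1_2 was 1.52 times it. Because fewer cells carrying a transcript and less RNA per cell look alike in bulk libraries, these ratios do not say which changed. On the log2(FPKM + 1) scale, which understates changes of low genes, the differences were 1.68 and 0.49. The first was the 8th highest of the 11875 genes and the second the 349th highest. Without shFAM83H-AS1_1 replicate 3 the FPKM ratio for that hairpin was 3.46.

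The DIRAS3 values rest on 282 to 448 reads per library with shFAM83H-AS1_1, 139 to 146 with shFAM83H-AS1_2 and 53 to 107 with shNC. The gene lies wholly inside the antisense gene GNG12-AS1, which runs on the plus strand across all 5746 bases of it. The strand setting of the counting is not given in the sources used here, so reads from the 2 strands cannot be told apart. GNG12-AS1 was itself listed at 0.108 to 0.303 FPKM with shFAM83H-AS1_1, 0.178 to 0.266 FPKM with shFAM83H-AS1_2 and 0.201 to 0.564 FPKM with shNC. It stayed under 1 FPKM in all 9 libraries. Within 500 kb of DIRAS3, 4 measured genes passed the filter. These were WLS, which carries Wnt proteins to the cell surface, the stress gene GADD45A, GNG12, a gamma subunit of G proteins, and DEPDC1. None of the 4 passed the test, with limma adjusted p of 0.17 to 0.837 for shFAM83H-AS1_1 and 0.765 to 0.994 for shFAM83H-AS1_2. GNG12 had the largest difference of these 4, at 18.7 and 20.3 FPKM with shFAM83H-AS1_1 and shFAM83H-AS1_2, against 31.5 FPKM with shNC, in the direction opposite to DIRAS3.

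MRAS (ENSG00000158186, chr3:138347648-138405534 on the plus strand) ran the other way. It had 13.5, 11.6 and 8.49 FPKM in replicates 1, 2 and 3 of shFAM83H-AS1_1. With shFAM83H-AS1_2 it had 20.2, 15.0 and 16.3 FPKM, and with shNC 30.8, 28.6 and 35.9 FPKM. Every library of the first hairpin was below every library of the second, and every control was above all 6 knockdown libraries. The means were 11.2 ± 2.54 FPKM with shFAM83H-AS1_1 and 17.2 ± 2.74 FPKM with shFAM83H-AS1_2, against 31.8 ± 3.74 FPKM with shNC (SD, n = 3 each). These are 35.2% and 54.1% of the control level. The log2 differences were -1.44 and -0.85, the 17th and the 37th lowest of the 11875 genes, and without shFAM83H-AS1_1 replicate 3 the first ratio was 0.395. At least 850 reads stood behind each value. The 5 genes within 500 kb of MRAS that passed the filter, PIK3CB, ARMC8, CEP70, DBR1 and FAIM, had limma adjusted p of 0.142 to 0.896 for shFAM83H-AS1_1 and 0.773 to 0.96 for shFAM83H-AS1_2, so none passed.

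**Figure D1:**
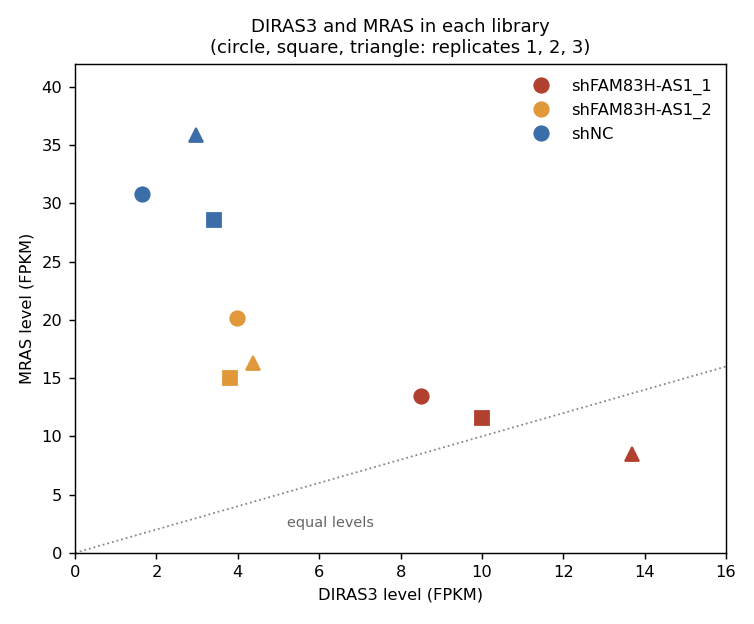
DIRAS3 level (FPKM, horizontal) against MRAS level (FPKM, vertical) in the 9 libraries, coloured by hairpin with a marker shape for each replicate; the dotted line marks equal levels. Control libraries sit at the upper left with MRAS at 28.6 to 35.9 FPKM, shFAM83H-AS1_2 libraries in between, and shFAM83H-AS1_1 libraries at the lower right, where replicate 3 has more DIRAS3 than MRAS.

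The balance between this pair differed widely between groups, as the plot of DIRAS3 against MRAS shows. The ratio of DIRAS3 to MRAS was 0.628, 0.867 and 1.61 in shFAM83H-AS1_1 libraries, 0.197, 0.255 and 0.268 in shFAM83H-AS1_2 libraries, and 0.0533, 0.119 and 0.0828 in shNC libraries. No group overlapped another in this ratio, a separation that the choice of these genes already sets. The summed level of all 9 genes was 157 ± 11.4 FPKM with shFAM83H-AS1_1 and 164 ± 6.53 FPKM with shFAM83H-AS1_2, against 189 ± 13.6 FPKM with shNC (SD, n = 3 each). MRAS made up 7.19 ± 1.89% and 10.5 ± 1.37% of that sum with the first and second hairpin, against 16.8 ± 0.775% with shNC, and DIRAS3 made up 6.85 ± 1.72% and 2.48 ± 0.129%, against 1.42 ± 0.511%. Without shFAM83H-AS1_1 replicate 3 the share with that hairpin was 8.03% for MRAS and 5.86% for DIRAS3.

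The R-Ras genes RRAS and RRAS2 encode close relatives of the classical RAS proteins, and R-Ras is known for raising the adhesiveness of integrins. RRAS (ENSG00000126458, chr19:49635292-49640143) had 13.9, 11.5 and 32.0 FPKM with shFAM83H-AS1_1, 12.3, 12.8 and 12.5 FPKM with shFAM83H-AS1_2, and 8.98, 8.50 and 8.29 FPKM with shNC. All 6 knockdown libraries were above all 3 controls, and replicate 3 of the first hairpin was far above the other 5. The log2 difference was 0.93 for shFAM83H-AS1_1 (SE 0.29, 95% interval 0.29 to 1.58) with a limma adjusted p of 0.109. For shFAM83H-AS1_2 it was 0.50 (SE 0.29) with a limma adjusted p of 0.767, so neither passed 0.05. Without shFAM83H-AS1_1 replicate 3 the first mean was 12.7 FPKM, 1.48 times that of shNC, close to the 1.46 times of the second hairpin.

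RRAS2 (ENSG00000133818, chr11:14277922-14364506), also called TC21, had 6.32, 10.4 and 7.05 FPKM with shFAM83H-AS1_1, 9.65, 7.42 and 9.58 FPKM with shFAM83H-AS1_2, and 9.58, 9.40 and 11.6 FPKM with shNC. The groups overlapped, with log2 differences of -0.35 and -0.18 (limma adjusted p = 0.257 and 0.87). RRAS was above RRAS2 in all 6 knockdown libraries, at 2.21, 1.10 and 4.54 times its level with shFAM83H-AS1_1 and 1.27, 1.73 and 1.31 times with shFAM83H-AS1_2. In the 3 shNC libraries it was below RRAS2, at 0.937, 0.904 and 0.713 times its level. This crossing was noticed after the values were seen and was not tested.

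**Figure D2:**
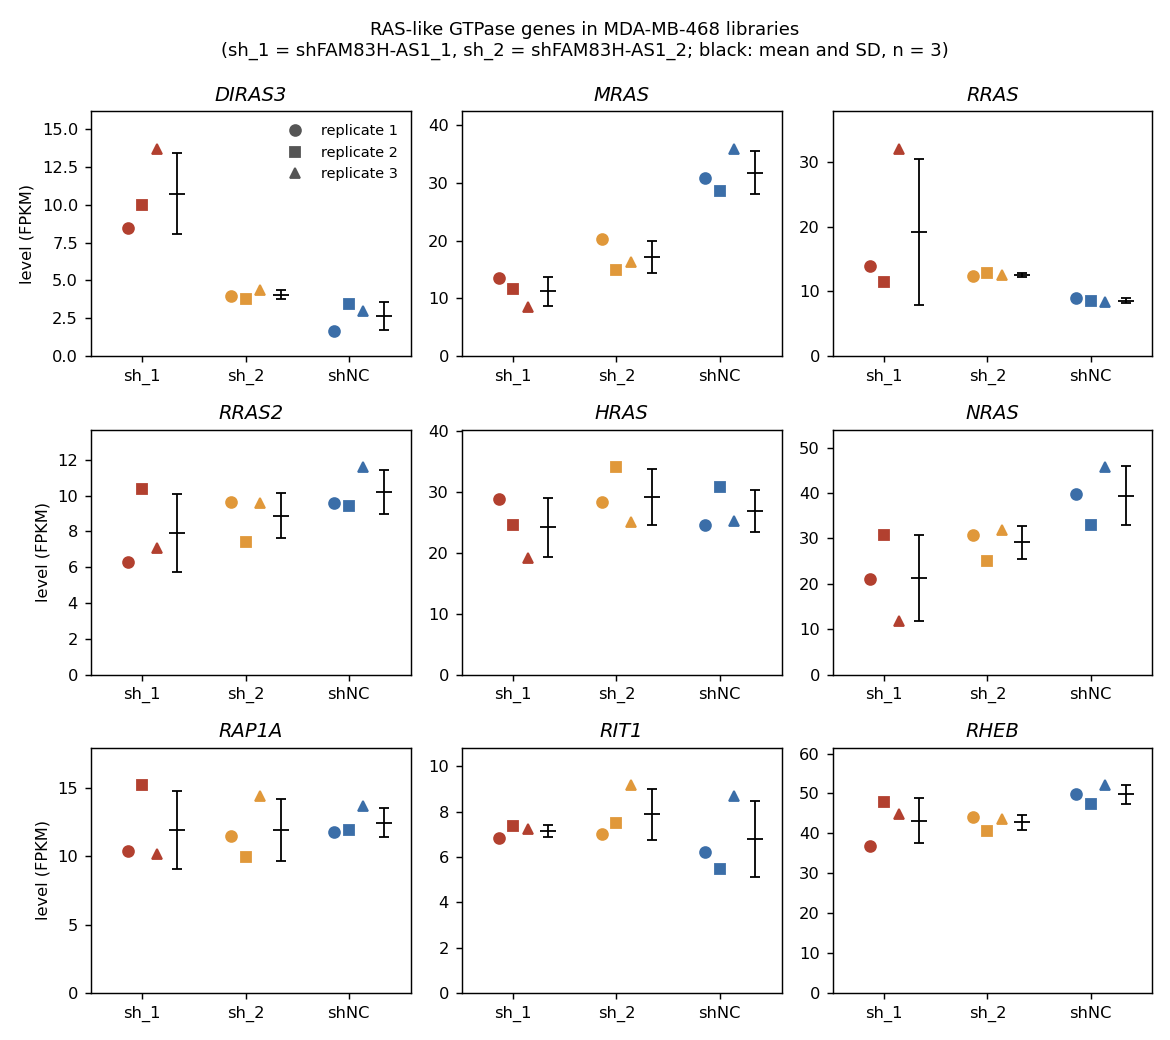
Level (FPKM, each vertical axis from 0) of the 9 genes in the 3 groups, 1 panel per gene; coloured marks are libraries with a shape for each replicate, and black marks are the mean and SD of 3 libraries. DIRAS3, MRAS, RRAS and NRAS have both knockdown groups on the same side of every shNC library, and RRAS in shFAM83H-AS1_1 replicate 3 stands at 32.0 FPKM.

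HRAS and NRAS are classical RAS genes. NRAS (ENSG00000213281, chr1:114704469-114716771) had 21.1, 30.8 and 11.9 FPKM with shFAM83H-AS1_1, 30.7, 25.0 and 31.8 FPKM with shFAM83H-AS1_2, and 39.7, 32.9 and 45.7 FPKM with shNC. Every control was above every knockdown library, while the knockdown groups overlapped each other. The log2 difference was -0.94 for shFAM83H-AS1_1 (SE 0.28, 95% interval -1.56 to -0.33) with a limma adjusted p of 0.0975. For shFAM83H-AS1_2 it was -0.42 (SE 0.28) with a limma adjusted p of 0.799. Neither passed. Leaving out shFAM83H-AS1_1 replicate 3 brought the first mean to 25.9 FPKM, 0.658 times that of shNC, where with all 3 libraries it was 0.539 times.

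HRAS (ENSG00000174775, chr11:532242-537287) had 28.9, 24.5 and 19.2 FPKM with shFAM83H-AS1_1, 28.4, 34.1 and 25.0 FPKM with shFAM83H-AS1_2, and 24.6, 30.8 and 25.3 FPKM with shNC. All groups overlapped, and the log2 differences from shNC were -0.16 (95% interval -0.54 to 0.23) and 0.11 (-0.27 to 0.49). Of the 3 libraries, 1 with shFAM83H-AS1_1 and 2 with shFAM83H-AS1_2 lay above the shNC mean of 26.9 FPKM. Without shFAM83H-AS1_1 replicate 3 the first mean was 26.7 FPKM, 0.992 times that of shNC. The difference between HRAS and NRAS was not tested. The HRAS to NRAS ratio averaged 1.26 ± 0.42 with shFAM83H-AS1_1 and 1.03 ± 0.302 with shFAM83H-AS1_2, against 0.704 ± 0.205 with shNC (SD, n = 3 each), with overlapping libraries, and the first ratio was 1.08 without replicate 3 of that hairpin.

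RAP1A, RIT1 and RHEB had the smallest differences with shFAM83H-AS1_1 beside HRAS. RAP1A, a GTPase of cell adhesion and junctions (ENSG00000116473, chr1:111542218-111716691), ranged over 10.2 to 15.2 FPKM with shFAM83H-AS1_1, 9.94 to 14.4 FPKM with shFAM83H-AS1_2 and 11.8 to 13.7 FPKM with shNC. Its log2 difference was -0.07 for each hairpin, with 95% intervals of -0.47 to 0.32 and -0.46 to 0.33. It overlaps TMIGD3, LINC01160, KRT18P57 and INKA2 on the other strand, whose group means reached at most 0.488 FPKM. RIT1 (ENSG00000143622, chr1:155897808-155911404), whose protein is removed through the adaptor LZTR1, had 6.83 to 7.37, 7.02 to 9.16 and 5.48 to 8.71 FPKM in the same order of groups. The log2 differences of RIT1 were 0.08 (-0.29 to 0.45) and 0.20 (-0.17 to 0.57). In neither gene did any pair of groups separate, and changes of the size of the intervals' ends are not excluded by these data.

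RHEB (ENSG00000106615, chr7:151466012-151520120), the GTPase that switches on the growth kinase complex mTORC1, was the highest of the 9 genes in every group. It had 36.9, 47.8 and 44.9 FPKM with shFAM83H-AS1_1, 44.2, 40.5 and 43.5 FPKM with shFAM83H-AS1_2, and 49.9, 47.3 and 52.0 FPKM with shNC. The shFAM83H-AS1_2 libraries lay below all controls and the shFAM83H-AS1_1 libraries did not. The log2 difference was -0.21 for each hairpin (limma adjusted p = 0.291 and 0.765). Part of the reads is uncertain, because the processed pseudogene RHEBP2, only 600 bases long, was listed at 40.3 to 48.6 FPKM with shFAM83H-AS1_1, 37.5 to 44.1 FPKM with shFAM83H-AS1_2 and 43.9 to 45.6 FPKM with shNC. How the counting shared reads between gene and copy is not given in the sources used here.

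**Figure D3:**
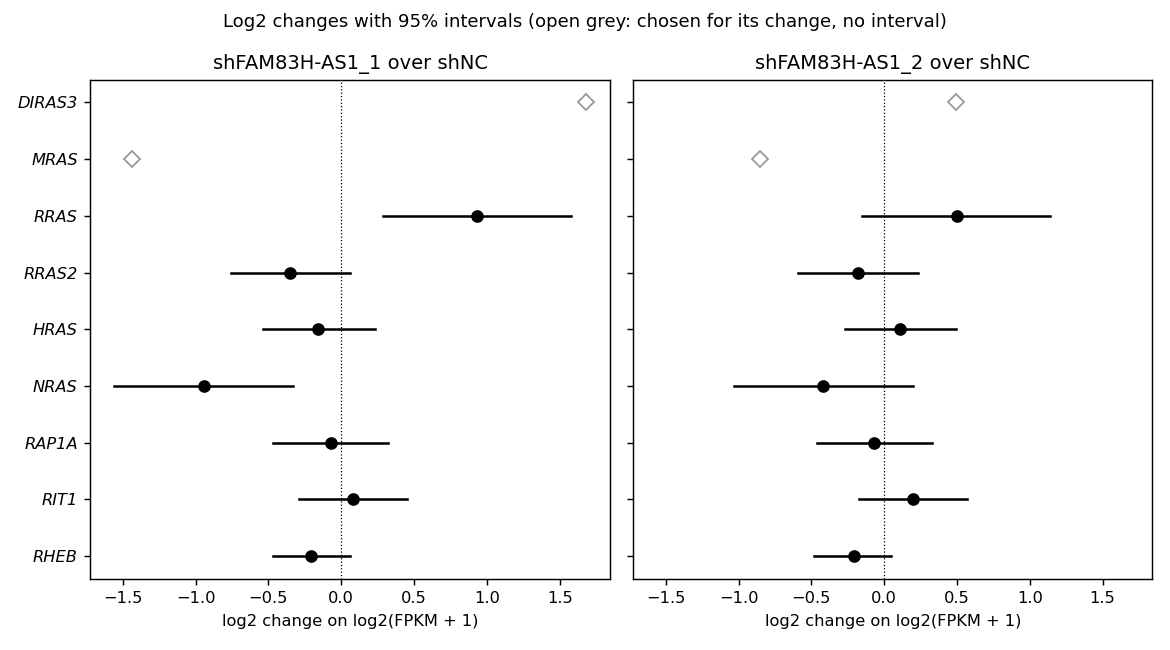
Log2 change on the log2(FPKM + 1) scale for the 9 genes, shFAM83H-AS1_1 over shNC on the left and shFAM83H-AS1_2 over shNC on the right; filled points carry 95% intervals from limma, and open grey diamonds are DIRAS3 and MRAS, shown without an interval because they were chosen for their change. Among the 7 tested genes only RRAS and NRAS have intervals that leave out 0, on the left and at 0.29 to 1.58 and -1.56 to -0.33.

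Counted over the 7 tested genes, none passed a limma adjusted p of 0.05 in any of the 3 comparisons. Across all 11875 genes, 1.57% passed for shFAM83H-AS1_1 over shNC, 0.0253% for shFAM83H-AS1_2 over shNC and 0.0926% for shFAM83H-AS1_2 over shFAM83H-AS1_1. At an unadjusted p under 0.05 the counts were 2 (RRAS and NRAS), 0 and 0 of 7. Over all genes they were 3005 (25.3%), 793 (6.68%) and 950 (8.0%). Limma-voom on whole reads recovered from the FPKM values gave 0 of 7 in each comparison as well. The groups did not overlap for 2 of the 7 with shFAM83H-AS1_1 (29.7% of all genes), for 3 of the 7 with shFAM83H-AS1_2 (22.0%), and for 0 of the 7 between the hairpins (12.0%). The median log2 difference of the 7 was -0.16 with shFAM83H-AS1_1 and -0.07 with shFAM83H-AS1_2, beside -0.08 and -0.01 over all genes. The hairpin comparisons share their 3 control libraries, so the same direction in both is not independent.

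Among the 7, the calls that other fits made fell on RRAS and NRAS. Without shFAM83H-AS1_1 replicate 2, limma adjusted p for shFAM83H-AS1_1 over shNC was 0.0363 for RRAS (log2 difference 1.21) and 0.0293 for NRAS (-1.25), and 8.49% of all genes then passed. The shFAM83H-AS1_2 and shNC libraries were taken as pairs by replicate number, judged from these values and not from the labels. No such pairs were found for shFAM83H-AS1_1. A fit of the paired groups with the replicate block gave limma adjusted p of 0.0221 for RRAS and 0.0343 for NRAS. In that paired fit 617 genes, 5.2% of all, passed.

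The order of levels within a group also shifted. With shNC it ran RHEB, NRAS, MRAS, HRAS, RAP1A, RRAS2, RRAS, RIT1 and DIRAS3, where NRAS and MRAS, MRAS and HRAS, and RRAS and RIT1 overlapped as neighbours. With shFAM83H-AS1_2 it ran RHEB, NRAS, HRAS, MRAS, RRAS, RAP1A, RRAS2, RIT1 and DIRAS3, and NRAS did not differ from HRAS, RRAS from RAP1A, or RRAS2 from RIT1 beyond their ranges. With shFAM83H-AS1_1 only RHEB was clear of the next gene, and every later neighbour overlapped. DIRAS3, last in the other groups, there lay at 8.49 to 13.7 FPKM beside MRAS at 8.49 to 13.5 FPKM. Without shFAM83H-AS1_1 replicate 3 these 2 genes did not overlap, at 8.49 to 10.0 FPKM for DIRAS3 and 11.6 to 13.5 FPKM for MRAS. NRAS, at 21.1 to 30.8 FPKM, was then clear of RRAS, at 11.5 to 13.9 FPKM. Between hairpins, DIRAS3 was lower with shFAM83H-AS1_2 than with shFAM83H-AS1_1 by a log2 difference of -1.19, and MRAS was higher by 0.59. None of the other 7 passed there, with limma adjusted p of 0.647 to 0.994.

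Among all tested genes with an ordinary symbol, those nearest to DIRAS3 in profile over the 9 libraries were CALML5, SLC29A4, TNFSF10, TOX2 and IRX2-DT. Likeness was the root mean square difference on log2(FPKM + 1) after each gene's own mean was removed, and it was 0.28 to 0.31 for these 5, beside 0.75 for the deviation of DIRAS3 from its own mean. CALML5, a calmodulin-like protein of epidermis, averaged 54.9 FPKM with shFAM83H-AS1_1 and 29.7 FPKM with shFAM83H-AS1_2, against 24.2 FPKM with shNC. TNFSF10, the death ligand TRAIL, averaged 5.60, 1.72 and 0.689 FPKM in the same groups. Being chosen for likeness, these genes stood highest, like DIRAS3, in shFAM83H-AS1_1 replicate 3. Over the 8 libraries without it their differences were 0.29 to 0.32, beside 0.62 for DIRAS3, and the shFAM83H-AS1_1 means were 46.4 FPKM for CALML5 and 4.40 FPKM for TNFSF10.

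Nearest to MRAS were CCL20, THBS1, SYNM, the gene model taken as the target FAM83H-AS1, and UTP18. Their differences were 0.16 to 0.24, beside 0.62 for the deviation of MRAS from its own mean. CCL20, a chemokine, averaged 0.188 FPKM with shFAM83H-AS1_1 and 0.864 FPKM with shFAM83H-AS1_2, against 2.15 FPKM with shNC. THBS1, the matrix protein thrombospondin, averaged 3.60, 6.16 and 11.4 FPKM. UTP18, a factor of ribosome assembly, averaged 9.70, 20.0 and 28.2 FPKM. In all 5, as in MRAS, the group means kept the order shFAM83H-AS1_1, shFAM83H-AS1_2, shNC from low to high. Their choice by likeness to MRAS over these libraries already sets this order. Without shFAM83H-AS1_1 replicate 3 the differences were 0.17 to 0.25, beside 0.54 for MRAS.

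**Figure D4:**
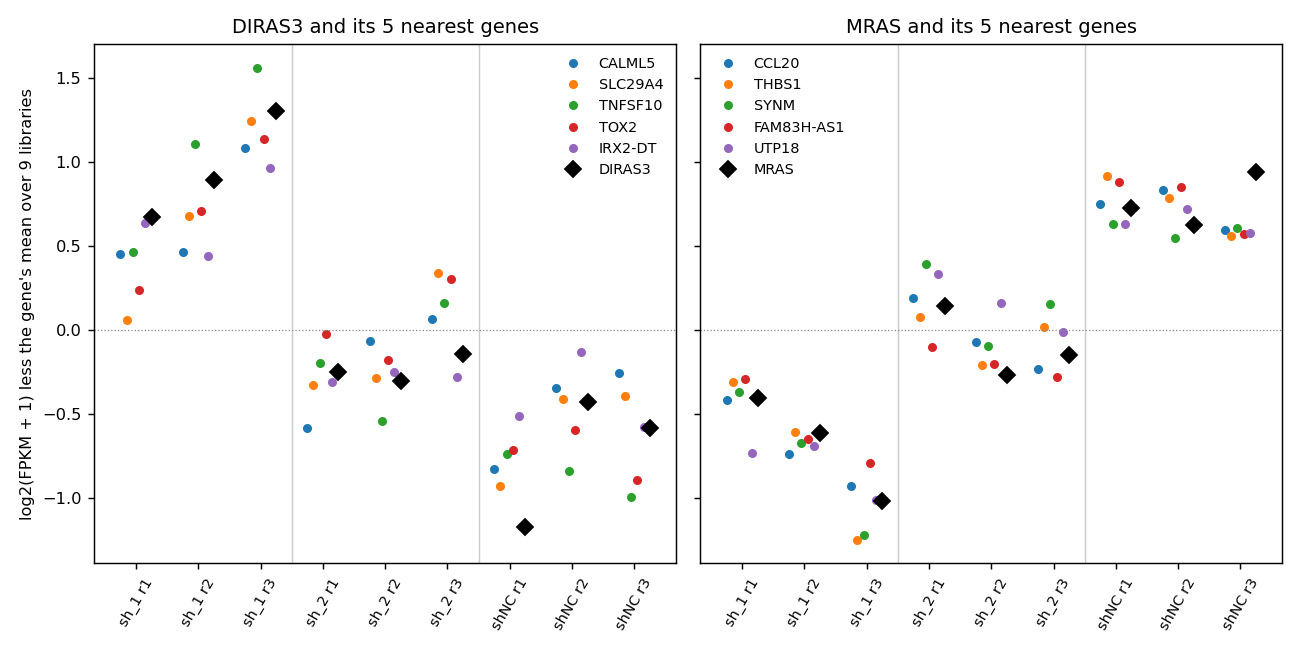
Profiles of DIRAS3 (left) and MRAS (right, black diamonds) with the 5 genes nearest to each, as log2(FPKM + 1) less the gene's mean over 9 libraries, by library and group (sh_1 is shFAM83H-AS1_1, sh_2 is shFAM83H-AS1_2). The DIRAS3 set is highest in shFAM83H-AS1_1 replicate 3, where MRAS and its set are lowest. The gene model taken as the target FAM83H-AS1 is among the genes nearest to MRAS. All were chosen for likeness over these same libraries, so the shared shapes follow from that choice.

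The other genes of the pathway were taken from 9 lists of 151 genes in all, of which 142 were in the table and 106 passed the filter. None of the 106 passed a limma adjusted p of 0.05 in any of the 3 comparisons, nor with limma-voom on recovered reads. At an unadjusted p under 0.05 there were 23 of 106 (21.7%) with shFAM83H-AS1_1, 7 (6.60%) with shFAM83H-AS1_2 and 8 (7.55%) between the hairpins, where the shares over all genes were 25.3%, 6.68% and 8.0%. The groups did not overlap for 19.8%, 17.9% and 9.43% of the 106, below the shares over all genes given above, and the median log2 differences were -0.10, -0.01 and 0.05.

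Other fits called some of the 106, at shares near those over all genes. Without shFAM83H-AS1_1 replicate 2, 8 of 106 (7.55%) passed for that hairpin over shNC, where 8.49% of all genes did. These were RAP1GAP, RASD2, RASAL1, ULK1, PHLDA2, EIF4EBP1 and RGL2, which rose, and LYPLA1, which fell, with limma adjusted p of 0.0317 (ULK1) to 0.0498 (PHLDA2). In the paired fit of shFAM83H-AS1_2 and shNC with the replicate block, 6 of 106 (5.66%) passed, where 5.2% of all genes did. RALB, ULK1, PHLDA2 and DEPTOR rose and RAP2C and PDE6D fell, with limma adjusted p of 0.0221 (RALB and ULK1) to 0.0439 (RAP2C).

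Of 15 tested relatives among the other RAS-like GTPases, RALB and RALA had the highest levels. RALB, which acts in exocytosis and survival signalling, averaged 39.8 ± 5.03 FPKM with shFAM83H-AS1_1 and 37.8 ± 4.19 FPKM with shFAM83H-AS1_2, against 25.8 ± 4.60 FPKM with shNC (SD, n = 3 each). All knockdown libraries of RALB exceeded all controls (log2 differences 0.61 and 0.54, limma adjusted p = 0.0762 and 0.517). In the paired fit with the replicate block the second value was 0.0221, and without shFAM83H-AS1_1 replicate 3 the first was 0.122. RALA, its close relative, averaged 26.4, 27.8 and 33.1 FPKM in these groups. DIRAS1, the other DIRAS gene that passed the filter, was named after its values were seen and averaged 10.4 ± 2.49, 7.52 ± 1.26 and 7.17 ± 1.86 FPKM, with overlapping groups. RASD2, also chosen after its values were seen, ran from 5.67 to 30.3 FPKM with shFAM83H-AS1_1 and 3.94 to 4.70 FPKM with shFAM83H-AS1_2, against 2.12 to 3.70 FPKM with shNC. Its limma adjusted p of 0.0896 for the first hairpin became 0.0381 without shFAM83H-AS1_1 replicate 3, at a log2 difference of 0.97 in place of 1.65, in a fit where 1.76% of all genes passed.

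Among regulators, 8 of 20 exchange factors were tested. RGL2, which loads RAL proteins, averaged 22.3 ± 3.73 FPKM with shFAM83H-AS1_1 and 16.8 ± 0.572 FPKM with shFAM83H-AS1_2, against 13.5 ± 1.80 FPKM with shNC (SD, n = 3 each). Its limma adjusted p was 0.0513 and 0.75, with no overlap between groups. Under quantile normalization, where 2.25% of all genes passed, the first value was 0.0408, and with the filter at 5 FPKM (2.46% of genes) it was 0.0417. With median scaling it was 0.0637 and without shFAM83H-AS1_1 replicate 3 it was 0.0658 (log2 difference 0.57), so these did not pass. Over the 18 alternatives the limma adjusted p of RGL2 for this hairpin ran from 0.0408 to 0.274. RAPGEF1, an exchange factor for RAP1, averaged 7.65 FPKM and 9.27 FPKM with the hairpins, against 9.87 FPKM with shNC (limma adjusted p = 0.151 and 0.924). Of 22 GTPase-activating proteins 20 were tested. Those with the highest levels were DAB2IP, at 22.9, 20.1 and 17.5 FPKM, and RASAL1, at 14.5, 11.2 and 8.71 FPKM, in shFAM83H-AS1_1, shFAM83H-AS1_2 and shNC. RASAL1 did not overlap between either hairpin and shNC (limma adjusted p = 0.0857 and 0.758).

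Downstream, MAP2K2, a kinase of the ERK cascade, averaged 41.4 and 39.6 FPKM with shFAM83H-AS1_1 and shFAM83H-AS1_2, against 35.8 FPKM with shNC, and ARAF, a RAF kinase, averaged 31.3, 31.8 and 30.6 FPKM. Neither passed (limma adjusted p of 0.389 or more). Among the partners of MRAS, the 6 tested genes of the SHOC2 complex and its scaffolds, the groups overlapped in all 3 comparisons. The phosphatase subunit PPP1CA averaged 139 ± 11.1 FPKM with shFAM83H-AS1_1 and 139 ± 17.1 FPKM with shFAM83H-AS1_2, against 125 ± 4.66 FPKM with shNC, and PPP1CB averaged 37.1 ± 13.4, 40.1 ± 11.0 and 48.7 ± 11.5 FPKM (SD, n = 3 each). SHOC2 itself, named after its values were seen, averaged 3.13 ± 1.88, 4.25 ± 1.92 and 4.50 ± 0.712 FPKM (limma adjusted p = 0.354 and 0.959). Its log2 difference for the first hairpin was -0.53, and -0.10 without shFAM83H-AS1_1 replicate 3.

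All 15 genes of the RHEB and mTORC1 list were tested. EIF4EBP1, a translation repressor that mTORC1 phosphorylates, averaged 161 ± 16.4 FPKM with shFAM83H-AS1_1 and 132 ± 15.1 FPKM with shFAM83H-AS1_2, against 112 ± 9.88 FPKM with shNC (limma adjusted p = 0.0668 and 0.758). RRAGA, a GTPase that brings mTORC1 to lysosomes, averaged 74.2, 63.7 and 51.4 FPKM. ULK1, a kinase that starts autophagy, was named after its values were seen and had 7.81 ± 1.85 and 6.97 ± 0.207 FPKM with the hairpins, against 4.47 ± 0.501 FPKM with shNC (limma adjusted p = 0.0647 and 0.517). The second value was 0.0221 in the paired fit with the replicate block, and without shFAM83H-AS1_1 replicate 3 the first was 0.0696. DIRAS3 is linked through Beclin to the class III PI3 kinase autophagy complex. All 8 genes of the list named for this complex, which also holds MAP1LC3B from outside it, were tested, with medians of -0.14 and -0.01. BECN1, again chosen after the fact, averaged 6.10 ± 0.444, 6.73 ± 0.384 and 7.05 ± 0.651 FPKM, and NRBF2 and MAP1LC3B, the highest of that list, had limma adjusted p of 0.401 or more.

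Among the genes listed for lipid anchors, not all of them enzymes, 11 of 12 were tested. ICMT, which methylates the prenylated end, averaged 38.3, 39.5 and 39.3 FPKM in shFAM83H-AS1_1, shFAM83H-AS1_2 and shNC. LYPLA2, a depalmitoylating thioesterase, averaged 51.8 and 74.3 FPKM with the first and second hairpin, against 66.3 FPKM with shNC, with no overlap between the hairpins (log2 difference 0.50 for shFAM83H-AS1_2 over shFAM83H-AS1_1, limma adjusted p = 0.471). Of 20 other imprinted genes, 8 were tested. PHLDA2, a growth-restraining imprinted gene of placenta, averaged 128 ± 14.8 FPKM with shFAM83H-AS1_1 and 113 ± 23.8 FPKM with shFAM83H-AS1_2, against 80.9 ± 6.69 FPKM with shNC (SD, n = 3 each). All its knockdown libraries exceeded all controls (limma adjusted p = 0.0657 and 0.59). For the first hairpin the value was 0.0379 under quantile normalization, 0.0805 with median scaling and 0.104 without shFAM83H-AS1_1 replicate 3, and it ran from 0.0379 to 0.274 over the 18 alternatives. For the second it was 0.0419 in the paired fit with the replicate block. PEG10 averaged 55.3 ± 35.3, 93.3 ± 19.2 and 99.5 ± 34.4 FPKM, with overlapping groups. Its log2 difference for the first hairpin was -1.05, and -0.37 without shFAM83H-AS1_1 replicate 3. Of the log2 differences of the 8 imprinted genes with all libraries, 4 were positive and 4 negative with each hairpin.

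**Figure D5:**
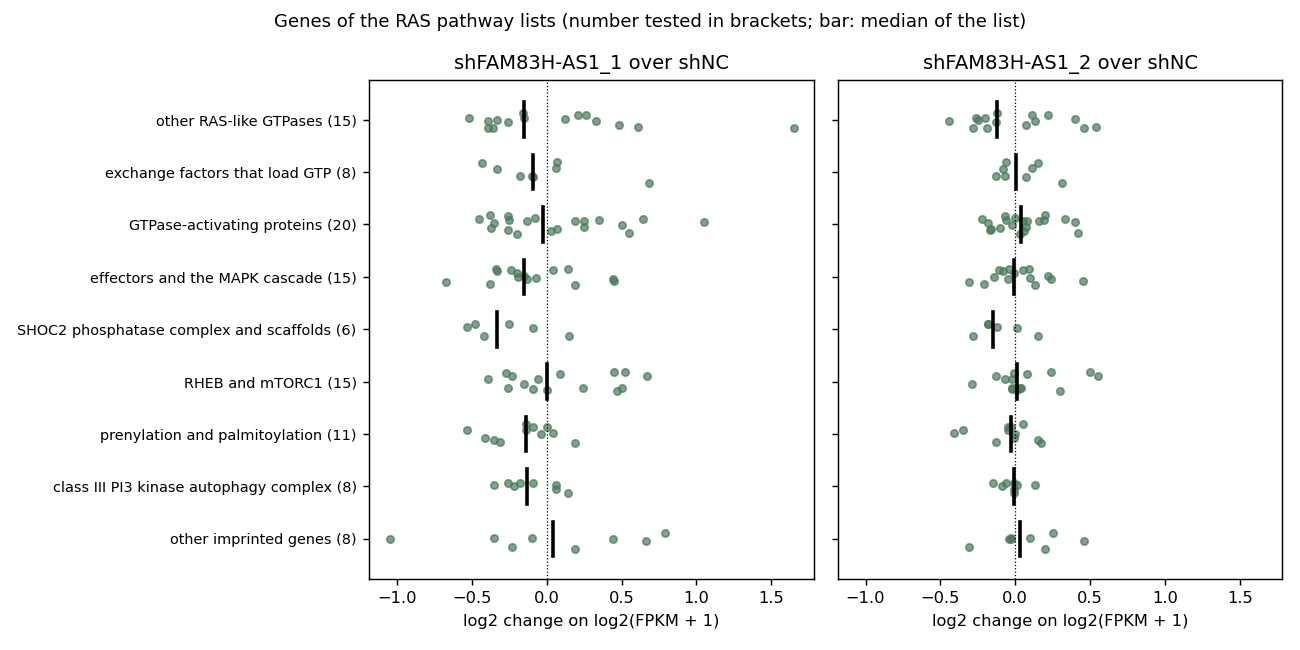
Log2 changes on the log2(FPKM + 1) scale of the tested genes in the 9 pathway lists, shFAM83H-AS1_1 over shNC on the left and shFAM83H-AS1_2 over shNC on the right; each point is a gene, black bars are list medians, and the number tested is in brackets. List medians lie between -0.33 and 0.05 on the left and between -0.15 and 0.04 on the right, and no gene shown passed a limma adjusted p of 0.05.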

How the data were processed

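The deposited table holds FPKM values per gene and library, computed by the authors. Bowtie2 2.2.3, HTSeq 0.6.0, HISAT2 2.1.0 and the build hg38 are named without their roles, per the submitters' processing notes. No source used here gives the annotation release or strand setting. Groups and replicate numbers came from the sample titles. Of 31005 lines, 1 stray fragment was left out, and 30883 identifiers got their symbol from a table of gene names and 107 from GENCODE release 29. Whole reads were recovered by taking, for each gene, the smallest length that made its value whole in every library. Such a length was found for 100% of genes within 1e-05 reads, which does not show that the counts are exact. A factor shared by all counts of a gene would be lost. FPKM as log2(FPKM + 1) were fitted with limma 3.58.1 in R 4.3.3, with 1 mean per group, all 9 libraries and a variance trend, for genes reaching 1 FPKM in 3 or more libraries. Tests were two-sided with Benjamini-Hochberg adjustment over 11875 genes at 0.05. Figures used Python 3.11.15 and matplotlib 3.10.9. Promoters came from RefSeq (GRCh38.p14). Deviations of same-numbered libraries correlated at 0.20, 0.35 and 0.39 between shFAM83H-AS1_2 and shNC, so these were taken as pairs, although the labels name no shared batch. For shFAM83H-AS1_1 they correlated at 0.13, -0.45 and -0.24 with shFAM83H-AS1_2 and at 0.18, -0.39 and -0.25 with shNC, so no pairs were taken there. Genes named by rule were the 9 GTPases and the target, the 2 highest genes of each list, any list gene called with all 9 libraries (there was none), the 5 nearest in profile to DIRAS3 and MRAS, and overlapping or neighbouring genes. Outside this rule, DIRAS1, RASD2, SHOC2, ULK1 and BECN1 were named after their values were seen. Further list genes were named because other fits called them. The genes, lists, tests and alternatives were chosen with earlier results of these data known. The fits were tested on simulated data. Alternatives were pseudocount 0.1, no filter or 5 FPKM, median or quantile scaling, a replicate block, fits of only the compared groups, voom on recovered reads, and leaving out each library.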

Additional observations from a re-analysis of the deposited data

How the results depend on the processing

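DIRAS3 and MRAS were chosen for their changes in these same libraries, so refitting the libraries is no independent check of them. No setting changed their direction. For shFAM83H-AS1_1 over shNC the log2 differences of DIRAS3 and MRAS ran from 1.46 to 2.03 and from -1.58 to -1.27 over the 18 alternatives. For shFAM83H-AS1_2 over shNC they ran from 0.27 to 0.66 and from -0.97 to -0.77. RRAS ran from 0.51 to 1.21 (limma adjusted p = 0.0363 to 0.308) and NRAS from -1.25 to -0.60 (0.0293 to 0.318) for the first hairpin, and their adjusted p ran from 0.0221 to 1.0 and from 0.0343 to 1.0 for the second. Of the 7 tested GTPases, 2 passed in the paired fit of shFAM83H-AS1_2 and shNC with the replicate block, and 0 to 2 when a library was left out for shFAM83H-AS1_1 over shNC, the 2 (RRAS and NRAS) without that hairpin's replicate 2. For the other comparisons these ranges were 0 to 0. Of the 106 pathway genes, 1 passed for shFAM83H-AS1_1 at the 5 FPKM filter (of 66 tested), 2 under quantile normalization and 0 to 8 with a library left out, the 8 (7.55%, beside 8.49% of all genes) without that hairpin's replicate 2, and 6 (5.66%, beside 5.2%) passed for shFAM83H-AS1_2 in that paired fit, while leaving out a library gave 0 to 0 there and between hairpins.

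Over all genes the 187 calls for shFAM83H-AS1_1 became 30 without a filter, 118 with median scaling, 92 with the block over 9 libraries, 9 and 0 in fits of only these groups without and with the block, and 80 with voom. With a library left out they ran from 9 (shNC replicate 3 out) to 1008 (shFAM83H-AS1_1 replicate 2 out). The 3 calls for shFAM83H-AS1_2 became 14 (no filter), 1 (5 FPKM filter), 1 (block), 33 and 617 (only these groups without and with the block) and 1 (voom), and ranged from 1 to 42, the highest without shFAM83H-AS1_1 replicate 3. The 11 between hairpins became 7 (pseudocount 0.1), 4 (block), 2 and 0 (only these groups) and 4 (voom), ranging from 3 to 17. The cause was not tested.

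Small differences changed sign. For shFAM83H-AS1_1 over shNC, RAP1A became 0.01 and 0.02 without that hairpin's replicates 1 and 3 (-0.24 to 0.02 with a library left out), and RIT1 became -0.04 without shNC replicate 2 (-0.04 to 0.25). For shFAM83H-AS1_2 over shNC, HRAS became -0.01 and RAP1A 0.05 without its replicate 2 (-0.01 to 0.21 and -0.20 to 0.05). Between hairpins RAP1A became -0.04, -0.03 and -0.00 with median scaling, quantile normalization and voom and -0.07, -0.09 and -0.13 with a library left out (-0.13 to 0.18), and RHEB became 0.07, 0.02 and 0.03 (-0.11 to 0.07). With 3 libraries a group, and 53 reads behind the lowest DIRAS3 value, small changes are not resolved. The pairing itself was judged on values that the paired fit then tests.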
